A study of Mus musculus with 18 samples.

Results

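Cells of the lungs of tumour-bearing mice were compared with cells of the lungs of healthy mice by Drop-seq, which captures single cells with barcoded beads in droplets and counts transcripts by unique molecular identifiers (UMIs). The comparison used 6 libraries of the 18 in the series, 1 per status and day. They held 6105 of the 19761 barcodes kept in the whole series, with 4213 from tumour-bearing and 1892 from healthy lungs. All mice were female BALB/cJ, 9, 10 and 11 weeks old at the 3 days, and both groups also gave spleens and biomaterial scaffold implants, which host cells enter. In tumour-bearing mice the fourth right mammary fat pad had been injected 7, 14 or 21 days earlier with 2000000 4T1-tdTomato-luc2 cells, a fluorescent and luminescent form of a mouse mammary carcinoma line. Healthy mice were matched to them in time and received no tumour cells. The number of animals behind a library is not stated, so p-values measure the spread between libraries, which may be technical. 4T1 is a single line in a single inbred strain, and both limit how far these groups stand for mammary cancer.

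Neutrophils are short-lived phagocytes made in the bone marrow, where they fill a series of granules in turn before entering the blood through signals of the G-CSF receptor and Cxcr2. Tumours that secrete G-CSF, 4T1 among them, are known for a large expansion of neutrophils and of immature myeloid cells with suppressive properties. In the lung, a main site of 4T1 metastasis, such cells gather beside resident alveolar macrophages, which clear surfactant and inhaled material, and beside the endothelial and epithelial cells of the alveolar wall.

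Values below are given for days 7, 14 and 21, in that order. Kept barcodes numbered 929, 931 and 2353 in tumour-bearing lungs and 587, 1070 and 235 in healthy lungs, and their median UMI counts were 898, 892 and 1115 in tumour-bearing lungs and 1016, 731 and 418 in healthy lungs. Some barcodes occurred in several libraries of a day. Such a barcode stayed in the library with the most UMIs where that number was 5 or more times the runner-up's, and was otherwise dropped. This left out 1.70%, 0.911% and 14.3% of the UMIs of tumour-bearing lungs and 6.96%, 1.24% and 80.1% of those of healthy lungs. The healthy library of day 21 therefore stood apart before any gene was compared, and at that day the 2 lung libraries shared 794 barcodes. Calls lost when the day 21 pair was left out are named or counted beside the results below. Sftpc, a surfactant protein that marks alveolar type 2 cells, had 7.63, 7.90 and 0.431 CPM (the library-scaled UMI count) in tumour-bearing and 21.6, 404 and 2991 CPM in healthy lungs. Scgb1a1, the secretory protein of club cells, had 74.6, 19.7 and 0.431 CPM in tumour-bearing and 4800.4, 46.3 and 14.5 CPM in healthy lungs, so both lung markers were present but uneven between libraries. Markers of carcinoma epithelium summed to 56.0 to 94.8 CPM in tumour-bearing and 145.9 to 318.7 CPM in healthy lungs. The tdTomato label of the tumour cells was not analysed here.

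Neutrophil-like barcodes, named from markers such as Csf3r, Cxcr2 and S100a8, were the largest class in every tumour-bearing lung library and a small one in healthy lungs. Their share was 40.7%, 49.7% and 80.2% of barcodes in tumour-bearing lungs, against 9.54%, 6.17% and 0.426% in healthy lungs. The groups did not overlap. The means were 56.9% ± 20.7 in tumour-bearing and 5.38% ± 4.61 in healthy lungs (SD over the 3 days, n = 3 each). Each SD holds change with day as well as spread between libraries. A 2-sided exact permutation test that ignored the day pairs gave p = 0.1, the smallest that 3 against 3 libraries allow. The fitted difference in log2 share was 3.72 ± 1.45 (SE) and did not pass over the 16 classes with 3 days (edgeR, Benjamini-Hochberg adjusted p = 0.12). Without the day 21 pair it was 2.55 ± 0.53 and passed (edgeR adjusted p = 0.00142).

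Granule-rich barcodes led by Ltf, Camp and Ngp, the secondary granule proteins that neutrophil precursors make in the marrow, were 0.215%, 7.52% and 11.3% of tumour-bearing lungs. In healthy lungs they were 0 of 587, 1 of 1070 (0.0935%) and 0 of 235 barcodes, where a count of 0 allows shares of up to 0.511% at day 7 and 1.28% at day 21. This granule-rich progenitor-like class rose in share by 6.59 ± 2.00 on the log2 scale (edgeR adjusted p = 0.0393), and it alone passed of the 16 classes. The call was lost without the day 7 pair (edgeR adjusted p = 0.574), without the day 14 pair (0.782) and with finer clusters (0.0506), and it held without the day 21 pair (0.00142). No doublets were removed, and each share is of all kept barcodes, so a larger class lowers the others by arithmetic.

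Alveolar macrophage-, B cell- and T cell-like barcodes were lower in share in tumour-bearing lungs at each day, and none of the 3 passed with all days. Alveolar macrophage-like barcodes were 8.50%, 3.44% and 0.85% in tumour-bearing and 18.7%, 13.4% and 40.0% in healthy lungs. B cell-like barcodes were 12.1%, 6.66% and 0.595% in tumour-bearing and 24.2%, 26.5% and 8.09% in healthy lungs. T cell-like barcodes were 12.4%, 6.02% and 0.553% in tumour-bearing and 21.1%, 18.3% and 7.23% in healthy lungs. The alveolar macrophage-like shares did not overlap between groups, while the B and T cell-like shares at day 21 in healthy lungs lay within the range of tumour-bearing lungs. Without the day 21 pair the alveolar macrophage-like share fell by 1.53 on the log2 scale and the B cell-like share by 1.49 (edgeR adjusted p = 0.0326 for both). Shares were also taken over barcodes outside the neutrophil-like class, with 3 days. The log2 changes were then -1.55 ± 0.77 for alveolar macrophage-, -0.95 ± 0.57 for B cell- and -0.72 ± 0.58 for T cell-like barcodes. None of them passed (edgeR adjusted p = 0.406, 0.406 and 0.461). Interstitial macrophage-like barcodes, at most 11 in a library, were 1.18%, 0.752% and 0.0850% in tumour-bearing and 1.02%, 0.748% and 1.70% in healthy lungs. A small unnamed cluster led by Sftpc, Scgb1a1 and Tmem100, with markers of endothelium and epithelium together, held 1.40%, 1.29% and 0.595% of tumour-bearing and 4.60%, 10.1% and 10.2% of healthy lungs. It passed only when the day 21 pair was left out (-2.37 ± 0.61, edgeR adjusted p = 0.00742). As a share outside the neutrophil-like class its change was -1.65 ± 0.58 and did not pass (edgeR adjusted p = 0.256).

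**Figure D1:**
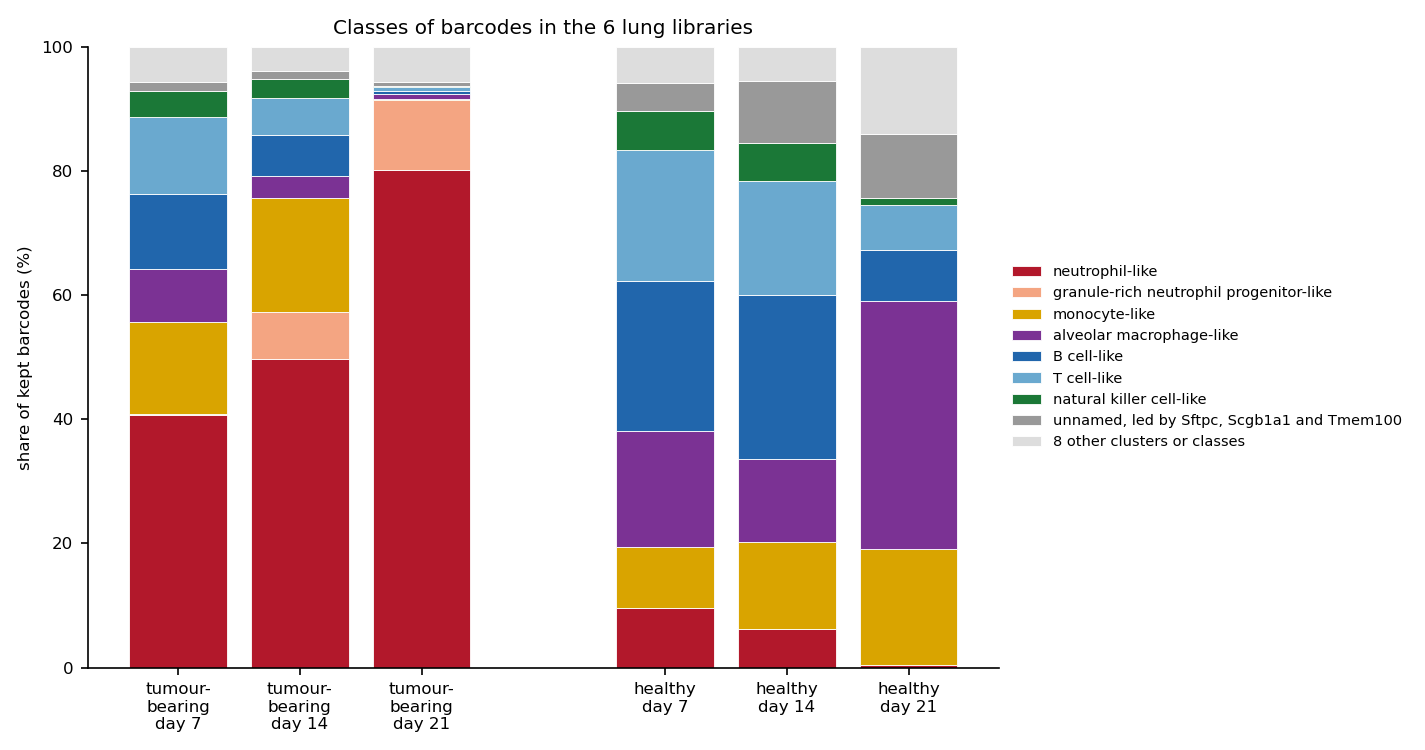
Share of kept barcodes in each class (percent, vertical axis, with 8 small classes or clusters joined) for the 6 lung libraries, tumour-bearing left of healthy, as stacked bars that sum to the whole library. Neutrophil-like barcodes reach 40.7%, 49.7% and 80.2% in tumour-bearing lungs and are at most 9.54% in healthy lungs.

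Across the 11838 genes tested in the summed counts, 627 rose in tumour-bearing lungs (5.3%) and 159 fell (1.34%), together 6.64%, with the day as pair and an adjusted p under 0.05 in edgeR's quasi-likelihood test. The median log2 change over all genes tested was -0.10. Groups of 3 libraries did not overlap for 1820 genes that were higher in tumour-bearing lungs (15.4%) and 1388 that were lower (11.7%). Scaling by library totals alone moved the median to -0.52 and the calls to 314 higher and 291 lower. Without the day 21 pair 314 genes rose and 20 fell, and 309 of the 627 rises and 18 of the 159 falls were among them. Without the day 14 pair 115 rose and 16 fell, and without the day 7 pair 710 rose and 360 fell. Counts over gene lists without a pair, given below, are to be read against these totals. Of the 105 genes called here and named by rule, 104 could be tested without day 21: all 104 kept their sign, and 52 passed. These genes were chosen from the fit that holds days 7 and 14, many for the same direction at each day. Their kept signs are therefore no separate evidence. A sum over a lung library cannot tell fewer cells of a type from less RNA per cell.

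Secreted proteins of neutrophils were among the largest rises. Wfdc17, a small secreted protein with a whey acidic protein domain, had 3580.1, 7603 and 15153 CPM in tumour-bearing lungs, against 66.9, 158 and 840.2 CPM in healthy lungs. Every tumour-bearing library lay above every healthy one, and the log2 change was 5.17 ± 0.60 (edgeR adjusted p = 0.000671). Its relative 1100001G20Rik, the older symbol of Wfdc21, had 1961, 5974 and 12773 CPM in tumour-bearing and 149, 183 and 159 CPM in healthy lungs. That is a log2 change of 4.97 ± 0.95 (edgeR adjusted p = 0.0227), with levels that climbed with day in tumour-bearing lungs and were flat in healthy ones. Saa3, an acute-phase serum amyloid that draws myeloid cells to the premetastatic lung in mice, had 356, 565 and 15990.4 CPM in tumour-bearing and 2.95, 13.6 and 159 CPM in healthy lungs. Its highest values in both groups were at day 21, and the change was 6.22 ± 0.94 (edgeR adjusted p = 0.00662). Saa3 and 1100001G20Rik did not pass without the day 21 pair (edgeR adjusted p = 0.119 and 0.176). Of the 12 called genes with the largest rise in mean CPM, the others were Actb, Il1b, Ifitm1, Fos, S100a6, S100a11, Anxa1, Srgn and Hp. Of these 9, Actb and Anxa1 did not pass without the day 21 pair (edgeR adjusted p = 0.129 and 0.272). Without the day 14 pair 1100001G20Rik, Actb, Anxa1, Fos, S100a6 and S100a11 did not pass.

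Prok2, a chemokine-like peptide known as Bv8 that neutrophils release on G-CSF signals in mice, was detected with 1604 UMIs over the 3 tumour-bearing libraries and 0 over the 3 healthy ones. Its level was 110.2, 708 and 326 CPM in tumour-bearing lungs, at least 285-fold higher when healthy lungs are set at a floor of 3 UMIs over the group (edgeR adjusted p = 8.19e-06). Stfa3, a stefin A that inhibits cysteine proteases, had 112, 695 and 4454 CPM in tumour-bearing lungs and also 0 UMIs in healthy lungs, against 11181 UMIs in tumour-bearing ones, at least 1988-fold higher (edgeR adjusted p = 0.000212). Stfa1 was at least 22.4-fold higher by the same floor, on 126 UMIs in tumour-bearing and 0 in healthy lungs. Stefin A genes are near-identical copies in mice, and how the authors' counting split reads between them is not known. Their relatives Stfa2 and BC100530 had log2 changes of 9.70 ± 2.12 and 7.88 ± 1.73 and did not pass (edgeR adjusted p = 0.0538 and 0.054). Among the genes of highest fold, Gm11714, Gm5416 and Gm15845 also rose. They were at least 30.9-fold and 27.7-fold higher for Gm11714 and Gm5416, and for Gm15845, with 620 UMIs in tumour-bearing lungs and 1 in healthy ones, the ratio was 331 (95% counting interval 59.1 to 13083).

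Where 5.3% of all genes tested rose and 1.34% fell, 8 of 15 tested secreted proteins and protease inhibitors of neutrophils rose and none fell. Their median log2 change was 5.37 (5.30 with the 3 members absent from healthy lungs at their bound), against -0.10 over all genes tested. Lrg1, a glycoprotein of neutrophil granules, had 612, 1289 and 2245 CPM in tumour-bearing and 25.6, 23.1 and 21.7 CPM in healthy lungs (5.50 ± 0.61). Chi3l1, a chitinase-like protein, had 209, 461 and 929 CPM in tumour-bearing and 19.7, 17.5 and 21.7 CPM in healthy lungs (4.35 ± 0.51), and BC117090 rose by 7.21 ± 1.40. Lcn2, the siderophore-binding neutrophil gelatinase-associated lipocalin, had 563, 2462 and 11196 CPM in tumour-bearing and 40.3, 19.9 and 0 CPM in healthy lungs and did not pass (6.46 ± 1.71, edgeR adjusted p = 0.0848). Slpi, a secreted inhibitor of neutrophil elastase, and Chi3l3 had log2 changes of 0.46 ± 0.30 and -0.18 ± 1.29 and did not pass. Chi3l1, Lrg1, Prok2, Stfa3 and Wfdc17 were the 5 of the 15 that rose with the day 14 pair or the day 21 pair left out, and in the fit without day 21 the median was 5.21. Gm5416 and Stfa1 did not pass without the day 21 pair (edgeR adjusted p = 0.0737 and 0.0939), nor did they or Gm11714 without the day 14 pair.

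The promoters of the 3 genes below are shown because these genes had the highest mean CPM in tumour-bearing lungs among those that rose both in the whole lung and within neutrophil-like barcodes and that have a single start in the RefSeq table. Each runs from 250 bases before to 50 after the start in RefSeq for GRCm38.p6, in the direction of transcription. Capitals mark matches on either strand to TTGCNNAA (the C/EBP type), GAGGAA (the ETS type of PU.1) or TATAAA (the letters of the TATA box). A match counts wherever in the window it lies.
Wfdc17: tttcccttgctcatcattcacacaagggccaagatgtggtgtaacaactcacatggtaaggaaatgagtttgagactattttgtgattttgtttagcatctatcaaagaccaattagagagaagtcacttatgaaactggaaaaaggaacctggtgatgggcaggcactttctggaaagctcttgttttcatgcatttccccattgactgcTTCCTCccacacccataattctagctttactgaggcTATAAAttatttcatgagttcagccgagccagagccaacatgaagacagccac
Saa3: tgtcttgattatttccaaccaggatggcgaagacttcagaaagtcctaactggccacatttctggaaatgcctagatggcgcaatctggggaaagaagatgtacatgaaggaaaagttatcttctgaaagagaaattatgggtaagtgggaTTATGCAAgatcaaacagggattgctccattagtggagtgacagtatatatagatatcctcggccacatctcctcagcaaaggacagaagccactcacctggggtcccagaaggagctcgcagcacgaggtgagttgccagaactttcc
Ifitm1: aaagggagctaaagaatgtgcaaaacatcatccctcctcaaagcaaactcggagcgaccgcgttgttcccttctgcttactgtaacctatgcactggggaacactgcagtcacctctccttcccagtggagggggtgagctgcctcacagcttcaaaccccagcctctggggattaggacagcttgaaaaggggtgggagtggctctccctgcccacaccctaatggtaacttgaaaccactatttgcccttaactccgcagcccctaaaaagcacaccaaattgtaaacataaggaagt
Wfdc17 lies at chr11:83703806-83704105 on the plus strand, with 1 GAGGAA, read here as its reverse complement, and 1 TATAAA. The TATAAA begins at -3 from the RefSeq start and so spans that start. Saa3 lies at chr7:46715627-46715926 on the minus strand, with 1 TTGCNNAA read on the opposite strand. Ifitm1, at chr7:140967826-140968125 on the plus strand, held none of these letters in the window. No matches overlapped.

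Of the 11838 genes tested, 6829 had a single start in the table. TATAAA was found in 34.8% of the 23 matched genes that rose in both the whole lung and neutrophil-like barcodes, in 9.79% of the 378 matched genes that rose in the lung, in 11.1% of the 81 that fell, and in 7.41% of all. TTGCNNAA was found in 13% of the 23, 11.6% of the 378, 11.1% of the 81 and 8.42% of all. GAGGAA was found in 30.4% of the 23, 34.4% of the 378, 28.4% of the 81 and 27.6% of all. These shares are descriptions of letters in a window and were not tested.

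Genes of mature neutrophils rose in 12 of 20 cases and fell in none, where 5.3% of all genes tested rose and 1.34% fell. The 20 genes had a median log2 change of 4.51. Csf3r, the G-CSF receptor, had 758, 1019.6 and 1091 CPM in tumour-bearing and 159, 85.3 and 36.2 CPM in healthy lungs (3.36 ± 0.43, edgeR adjusted p = 0.000693). Cxcr2, the receptor that leads neutrophils out of the marrow and to CXC chemokines, had 1651, 2545 and 3365 CPM in tumour-bearing and 213, 124 and 7.24 CPM in healthy lungs (4.49 ± 0.87, edgeR adjusted p = 0.0205). Both stood highest at day 21 in tumour-bearing lungs and lowest at day 21 in healthy lungs. That healthy library kept 113896 UMIs, so values as low as 7.24 CPM in it, for this and other genes, rest on very few UMIs. Ly6g, the surface antigen that marks mouse neutrophils, had 39.9, 198 and 205 CPM in tumour-bearing and 0.984, 1.59 and 0 CPM in healthy lungs (6.61 ± 0.69). Mmp9, the gelatinase of tertiary granules, rose by 3.82 ± 0.78 and Il1r2, the decoy receptor for interleukin 1, by 4.53 ± 0.84. Camp, Cd177, Fpr1, Hdc, Padi4 and Trem1 were among the others. Camp is also on the list of neutrophil progenitor markers, so its rise does not speak for mature cells alone. Without the day 21 pair 7 of the 20 rose, and Camp, Il1r2 and Mmp9 did not pass (edgeR adjusted p = 0.185, 0.0531 and 0.0851). Without the day 14 pair 4 rose (Csf3r, Hdc, Ly6g and Trem1).

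The calprotectin subunits, calcium-binding proteins that fill the neutrophil cytosol, were the most abundant transcripts of this group and did not pass. S100a8 had 21677, 60693 and 132136 CPM in tumour-bearing and 1634, 1967 and 529 CPM in healthy lungs. S100a9 had 23983, 79166 and 151752 CPM in tumour-bearing and 2110.5, 2015 and 456 CPM in healthy lungs. The groups were far apart at each day, and the day 21 healthy library was the lowest of all. The log2 changes were 5.42 ± 1.25 and 5.60 ± 1.29 (edgeR adjusted p = 0.0575 and 0.0564). Both passed when the lung was fitted alone, without the day as block, with all 18 libraries, and with DESeq2. Neither passed without the day 21 pair (edgeR adjusted p = 0.176 for S100a8 and 0.15 for S100a9) or without the day 14 pair. Without the day 7 pair S100a9 passed and S100a8 did not. Retnlg and Mmp8 had log2 changes of 5.16 ± 1.61 and 4.33 ± 1.56 and did not pass either (edgeR adjusted p = 0.125 and 0.168).

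Granule proteins that precursors make in the marrow rose in part, where 5.3% of all genes tested rose. Of the 9 azurophil granule genes, Prtn3, proteinase 3, rose (10.2, 58.2 and 121 CPM in tumour-bearing and 0, 1.59 and 7.24 CPM in healthy lungs, 4.96 ± 0.74). Camp, the cathelicidin of secondary granules, had 39.0, 1365 and 2599.7 CPM in tumour-bearing and 0, 15.9 and 0 CPM in healthy lungs and rose by 7.16 ± 1.40 (edgeR adjusted p = 0.0286). Ngp, neutrophilic granule protein, had 97.5, 2549.5 and 9109 CPM in tumour-bearing and 0, 26.3 and 7.24 CPM in healthy lungs. Ltf, the iron-binding lactoferrin, had 9.33, 835 and 1420.4 CPM in tumour-bearing and 0.984, 12.0 and 0 CPM in healthy lungs. Their log2 changes of 7.67 ± 2.10 and 6.40 ± 2.32 did not pass (edgeR adjusted p = 0.0957 and 0.174). Camp did not pass without the day 21 pair (edgeR adjusted p = 0.185), nor without the day 7 or the day 14 pair, and Prtn3 did not pass without the day 14 pair. In each of these 3 secondary granule genes the level at day 7 was far below that at days 14 and 21 in tumour-bearing lungs.

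Genes tied to suppressive myeloid cells rose in 10 of 16 cases, where 5.3% of all genes tested did, with a median of 2.32. Without the day 21 pair 9 rose. Ifitm1, an interferon-induced membrane protein, had 1501, 4094 and 7293 CPM in tumour-bearing and 22.6, 24.7 and 29.0 CPM in healthy lungs. The healthy values lay within a narrow band, and the log2 change was 7.02 ± 0.59 (edgeR adjusted p = 0.000123). Arg2 and Nos2, which consume arginine, rose by 2.67 ± 0.36 and 5.40 ± 0.85. Nos2 was scarce, with 4.24, 20.7 and 122 CPM in tumour-bearing and 0, 0.797 and 0 CPM in healthy lungs. Arg1, the liver-type arginase also used by suppressive cells, had a log2 change of 0.51 ± 0.92 and did not pass (edgeR adjusted p = 0.781). Clec4e and Clec4d, C-type lectins that sense microbial glycolipids, rose by 3.19 ± 0.33 and 2.55 ± 0.36. Asprv1, Cd84, Il1f9, Junb and Wfdc17 were the others that rose. Asprv1 did not pass without the day 21 pair (edgeR adjusted p = 0.132), and without the day 14 pair 6 of the 16 rose, with Asprv1, Cd84, Junb and Nos2 no longer called.

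Among the 15 interleukin 1 and inflammatory cytokine genes 8 rose and 1 fell, with a median of 2.37. Of all genes tested 5.3% rose and 1.34% fell. Il1b, the secreted interleukin 1, had 6961, 4323 and 5230.4 CPM in tumour-bearing and 1137, 587 and 471 CPM in healthy lungs (2.98 ± 0.37, edgeR adjusted p = 0.000501). Unlike Wfdc17 or Saa3 it was highest at day 7 in tumour-bearing lungs, as in healthy lungs. Osm, oncostatin M of the interleukin 6 family, rose by 3.31 ± 0.42 and Tnfsf14, the TNF ligand known as LIGHT, by 3.72 ± 0.46. Il1f9, Il1r2 and Il1rap of the interleukin 1 system rose, as did Casp4 and Nlrp3 of the inflammasomes. Without the day 21 pair 6 rose, and without the day 14 pair also 6, with Il1r2 and Nlrp3 not among them in either. The member that fell was Il18, which alveolar macrophages carry at rest, with 82.3, 28.6 and 12.5 CPM in tumour-bearing and 189, 239 and 217 CPM in healthy lungs (-2.68 ± 0.46, edgeR adjusted p = 0.0043). It fell without the day 21 pair too, and did not pass without the day 14 pair.

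Receptors outnumbered ligands among the attractant genes that rose, a contrast not set against the make-up of the list. Of 23 tested, 8 rose and 1 fell, with a median of 1.33, where 5.3% and 1.34% of all genes tested did. The 7 receptors were Cxcr1, Cxcr2, Ccr1, C5ar1 for the complement fragment C5a, Ltb4r1 for leukotriene B4, and the growth factor receptors Csf3r and Csf2rb. Ccr1 had 699, 706 and 1105 CPM in tumour-bearing and 157, 109 and 138 CPM in healthy lungs (2.59 ± 0.39). C5ar1 had 260.3, 489.6 and 555 CPM in tumour-bearing and 73.8, 63.0 and 50.7 CPM in healthy lungs (2.65 ± 0.41). The single ligand was Cxcl2, a Cxcr2 ligand, with 374, 324 and 2510.1 CPM in tumour-bearing and 100.4, 49.4 and 116 CPM in healthy lungs (2.92 ± 0.71, edgeR adjusted p = 0.0395). Its value at day 21 in tumour-bearing lungs stood well above the other 5. The member that fell was Ccl6, a chemokine of resting macrophages, with 1325, 359 and 880.1 CPM in tumour-bearing and 1987, 2066 and 2274 CPM in healthy lungs (-1.49 ± 0.37). Cxcl2 and Ccl6 did not pass without the day 21 pair (edgeR adjusted p = 0.204 and 0.115), where 7 receptors rose, with Ccr2 and without Ltb4r1. Without the day 14 pair 4 receptors rose (C5ar1, Ccr1, Csf2rb and Csf3r), and no ligand passed.

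**Figure D2:**
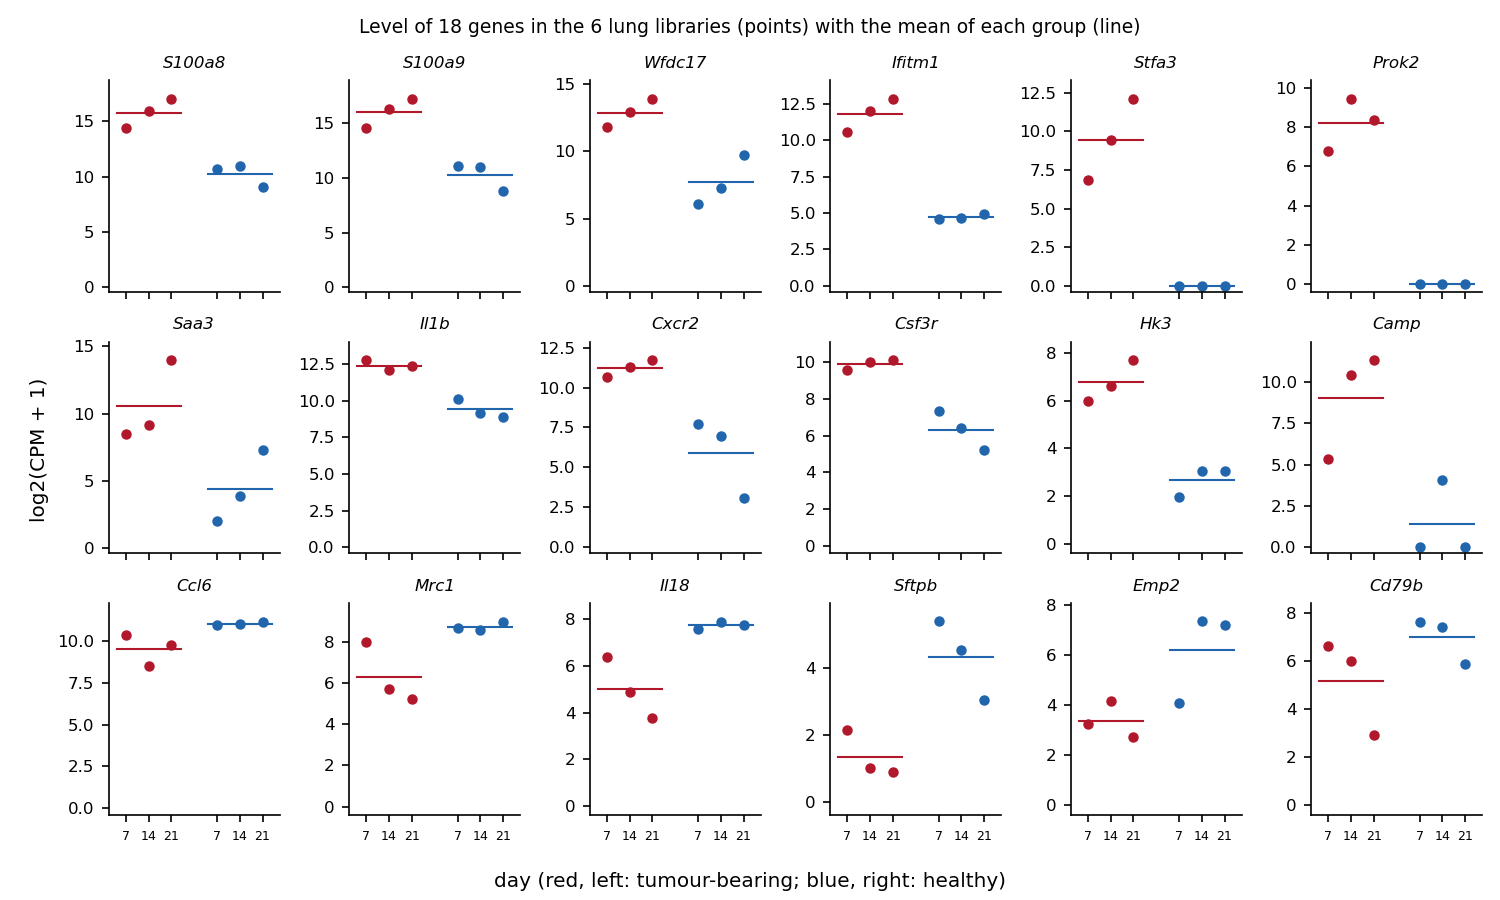
Level of 18 genes in each lung library as log2(CPM + 1), with 1 point per day, tumour-bearing (red) left of healthy (blue), and a line at each group's mean. Ifitm1 stays between 22.6 and 29.0 CPM in healthy lungs and is at least 1501 CPM in every tumour-bearing library.

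Genes of glucose use were among the rises. Of the 22 glycolysis and hypoxia genes 14 rose and none fell, with a median of 1.42. Over all genes tested 5.3% rose and 1.34% fell. Slc2a3, the high-affinity glucose carrier GLUT3, had 111, 183 and 291 CPM in tumour-bearing and 41.3, 15.2 and 7.24 CPM in healthy lungs (2.85 ± 0.56). Hk3, the hexokinase of myeloid cells, had 62.8, 96.7 and 208 CPM in tumour-bearing and 2.95, 7.18 and 7.24 CPM in healthy lungs (4.11 ± 0.40, edgeR adjusted p = 0.000188). Hk1 and Hk2, the hexokinases of wider use, had log2 changes of 0.76 ± 0.49 and 0.40 ± 0.40 and did not pass (edgeR adjusted p = 0.37 and 0.587). Pkm, pyruvate kinase, rose by 2.20 ± 0.42, Gapdh by 2.39 ± 0.48 and Slc16a3, the lactate exporter MCT4, by 3.02 ± 0.48. Aldoa, Bnip3, Eno1, Gpi1, Hif1a, Ldha, Pfkfb3, Pgk1 and Slc2a1 were the other 9. Pkm and Gapdh did not pass without the day 21 pair (edgeR adjusted p = 0.0585 and 0.0945). Leaving out the day 21 pair, 6 of the 22 rose, without the day 14 pair 1 (Hk3), and with library totals alone 8 rose and 1 fell.

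Immediate early genes rose in 11 of 20 cases, where 5.3% of all genes tested did, with a median of 1.74. Cells switch these genes on within minutes of a stimulus or of tissue dissociation. Fos had 3235, 5125 and 7640.2 CPM in tumour-bearing and 1538, 1167 and 1224 CPM in healthy lungs (1.95 ± 0.33). Socs3, the feedback inhibitor of cytokine receptors including that of G-CSF, had 387, 427 and 615 CPM in tumour-bearing and 53.1, 29.5 and 7.24 CPM in healthy lungs (3.75 ± 0.42, edgeR adjusted p = 0.000289). Junb, Egr1, Ier2, Ier3, Ier5, Btg2, Dusp1, Klf2 and Zfp36 also rose. All but Ier2 and Klf2 of the 11 rose without the day 21 pair, and 2 did without the day 14 pair (Ier3 and Socs3). Heat shock genes, another sign of handling stress, rose in 0 of 14 cases and fell in 0, with summed levels of 1855 to 4204 CPM in tumour-bearing and 4052 to 4983 CPM in healthy lungs. The part of handling in the immediate early genes was not tested.

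Genes of phagocyte machinery were among the rises. Of 12 genes of the phagocyte oxidase and of calcium signals 7 rose, where 5.3% of all genes tested did, with a median of 1.87. Without the day 21 pair 5 rose, and without the day 14 pair 1 did (Ncf4). Ncf4, a cytosolic subunit of the NADPH oxidase, rose by 2.45 ± 0.38. S100a6 had 783, 2226 and 8100.5 CPM in tumour-bearing and 244, 297 and 826 CPM in healthy lungs (2.63 ± 0.45), and Anxa1, an annexin that restrains neutrophil entry, had 926, 3541 and 5864 CPM in tumour-bearing and 295, 368 and 688 CPM in healthy lungs (2.68 ± 0.62). Alox5ap, which presents arachidonic acid to 5-lipoxygenase, had 732, 1942 and 5533 CPM in tumour-bearing and 228, 279 and 493 CPM in healthy lungs (2.65 ± 0.48). Anxa1 and Alox5ap did not pass without the day 21 pair (edgeR adjusted p = 0.272 and 0.0784). Alox5ap and Pla2g7 were the 2 of 15 prostaglandin and leukotriene genes that rose. Of 19 antioxidant and iron genes, Prdx5, the iron exporter Slc40a1 and the metalloreductase Steap4 rose. Steap4 had 265, 256 and 233 CPM in tumour-bearing and 14.8, 1.59 and 0 CPM in healthy lungs (5.36 ± 0.60).

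Interferon and complement lists each held a few genes that rose, where 5.3% of all genes tested did. Irf7, Slfn1 and Slfn4 rose of 20 type I interferon response genes, and Gbp2 and Irf1 of 17 interferon gamma response genes. Complement genes rose in 3 of 15 cases (C5ar1, the stabilising factor Cfp, and Itgam, a chain of complement receptor 3). Slfn1, Gbp2 and Irf1 alone of these interferon response genes rose without the day 21 pair, and without the day 14 pair none did, while the 3 complement genes rose in both. Of the 15 metastatic niche genes Mmp9, Saa3 and Vcan rose, none without the day 21 pair and Saa3 alone without the day 14 pair. Cell cycle genes rose in 1 of 24 cases (Hmgb2, which did not pass without the day 14 pair). No gene passed in either direction among 22 matrix, 14 MHC class I and 15 checkpoint and T cell state genes. MHC class II genes, which present antigen on macrophages, dendritic and B cells, passed in 0 of 11 cases with a median of -1.44. Cd74, their invariant chain, had 1607, 1803 and 71.0 CPM in tumour-bearing and 2439, 3766 and 3172 CPM in healthy lungs and did not pass (-2.09 ± 0.95, edgeR adjusted p = 0.233).

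The genes that fell included markers of resident cells of the lung. Of 17 markers of alveolar macrophages 6 fell and none rose, with a median of -2.24. Over all genes tested 1.34% fell and 5.3% rose. Mrc1, the mannose receptor, had 250.2, 50.3 and 35.7 CPM in tumour-bearing and 399, 379 and 499.8 CPM in healthy lungs (-2.44 ± 0.51, edgeR adjusted p = 0.014). Ear2, a secreted ribonuclease, had 178, 66.1 and 32.3 CPM in tumour-bearing and 290.2, 420.3 and 543 CPM in healthy lungs (-2.45 ± 0.55). Its near copies among the Ear genes make that count uncertain. In both genes the tumour-bearing level was lower at each later day. Car4, Ccl6, Cd9 and Il18 were the other 4, and Abcg1, a sterol exporter that alveolar macrophages need, also fell (-1.91 ± 0.42). The marker list summed to 2279 to 4173 CPM in tumour-bearing and 6091 to 8648 CPM in healthy lungs. Mrc1, Ear2 and Abcg1 did not pass without the day 21 pair (edgeR adjusted p = 0.0909, 0.101 and 0.0658). Il18 alone of the 17 fell without the day 21 pair, and without the day 14 pair none did.

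In the alveolar wall, 4 of 18 endothelial markers fell (median -1.67), 2 of 11 type 2 markers (-3.70) and 3 of 13 type 1 markers (-1.74), where 1.34% of all genes tested did. Summed levels overlapped between groups in each list. In tumour-bearing and then healthy lungs, endothelial markers summed to 135 to 322 and 195 to 1511 CPM. Type 2 markers summed to 155 to 407 and 293 to 3535 CPM, and type 1 markers to 216 to 617 and 299 to 853 CPM. Napsa and Abca3 of the type 2 list had log2 changes of 1.08 and -0.10 and did not pass. Kdr, the VEGF receptor of endothelium, had 0.848, 15.8 and 1.72 CPM in tumour-bearing and 6.89, 82.9 and 21.7 CPM in healthy lungs (-2.74 ± 0.57). Tmem100, a lung endothelial gene, had 2.54, 20.7 and 24.1 CPM in tumour-bearing and 2.95, 199 and 239 CPM in healthy lungs (-2.98 ± 0.50), so its day 7 values were close together. Sftpb, the surfactant protein without which the newborn lung cannot breathe, had 3.39, 0.987 and 0.861 CPM in tumour-bearing and 41.3, 22.3 and 7.24 CPM in healthy lungs (-3.70 ± 0.82, edgeR adjusted p = 0.0221). Sftpc had a log2 change of -6.48 ± 2.89 and did not pass (edgeR adjusted p = 0.344). Emp2, a membrane protein of type 1 cells, had 8.48, 16.8 and 5.60 CPM in tumour-bearing and 15.7, 161 and 145 CPM in healthy lungs (-3.09 ± 0.57). Of these markers 2 endothelial, 2 type 2 and 1 type 1 fell without the day 21 pair, and Lyz1 of the type 2 list alone without the day 14 pair.

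Ccl21a, the chemokine of lymphatic vessels that guides cells with the receptor Ccr7, had 0 UMIs over the tumour-bearing lungs and 47 over the healthy ones, at least 29.4-fold lower by the floor of 3 UMIs over the group. It had 0, 28.7 and 79.7 CPM in healthy lungs, so day 7 held none in either group. Kitl, the ligand of the stem and mast cell receptor Kit, had 1.70, 9.87 and 6.46 CPM in tumour-bearing and 2.95, 135 and 86.9 CPM in healthy lungs (-3.45 ± 0.53). Dmd, Cav2 and Sept4 completed the genes of lowest fold with Sftpb, at -3.68 ± 0.79, -3.40 ± 0.56 and -3.36 ± 0.72. Dmd and Sept4 did not pass without the day 21 pair (edgeR adjusted p = 0.0548 and 0.0981). Ccl21a could not be tested without the day 14 or the day 21 pair and did not pass without the day as block, and without the day 14 pair Sftpb, Kitl, Dmd, Cav2 and Sept4 did not pass. Among lymphocyte markers, Cd22, Cd79b and Faim3 fell of 17 B cell genes. None fell of 19 T cell genes, and Klrb1b fell of 17 natural killer cell genes. Of all genes tested 1.34% fell. No lymphocyte marker of these 3 lists fell without the day 21 pair or without the day 14 pair.

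Of 20 transcripts of the mitochondrial genome 5 fell (mt-Cytb, mt-Nd1, mt-Nd2, mt-Tm and mt-Tq), where 1.34% of all genes tested did. The median of the 20 was -0.81, and none fell without the day 21 pair or without the day 14 pair. Summed mitochondrial transcripts overlapped between groups, with 91903, 112239 and 96091 CPM in tumour-bearing and 101297, 97411 and 78174 CPM in healthy lungs. mt-Nd1 had 1161, 800.5 and 353 CPM in tumour-bearing and 2027, 1714 and 1536 CPM in healthy lungs (-1.33 ± 0.31). Ribosomal protein genes passed in 0 of 85 cases, with a median of -0.40. Other cells gave little: 0 of the 12 tested carcinoma epithelial markers passed, and none of the platelet, erythroid, plasma cell, basophil and mast cell, conventional or plasmacytoid dendritic cell markers did with 3 days. Summed erythroid markers ranged from 37.9 to 3587 CPM in tumour-bearing and 181.1 to 2889 CPM in healthy lungs. Hp, haptoglobin, was the sole club and airway marker to rise, with 1109, 2141 and 4492 CPM in tumour-bearing and 195, 119 and 79.7 CPM in healthy lungs (4.03 ± 0.59), and neutrophils are known to carry it too. Classical monocyte markers rose in 3 of 12 cases (F13a1, Plac8 and Vcan), where 5.3% of all genes tested did. Patrolling monocyte markers rose in 2 of 15 (Apoc2 and Pglyrp1, which is also a neutrophil granule protein). Of these monocyte markers Ccr2, F13a1 and Plac8 rose without the day 21 pair, and F13a1 alone without the day 14 pair.

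**Figure D3:**
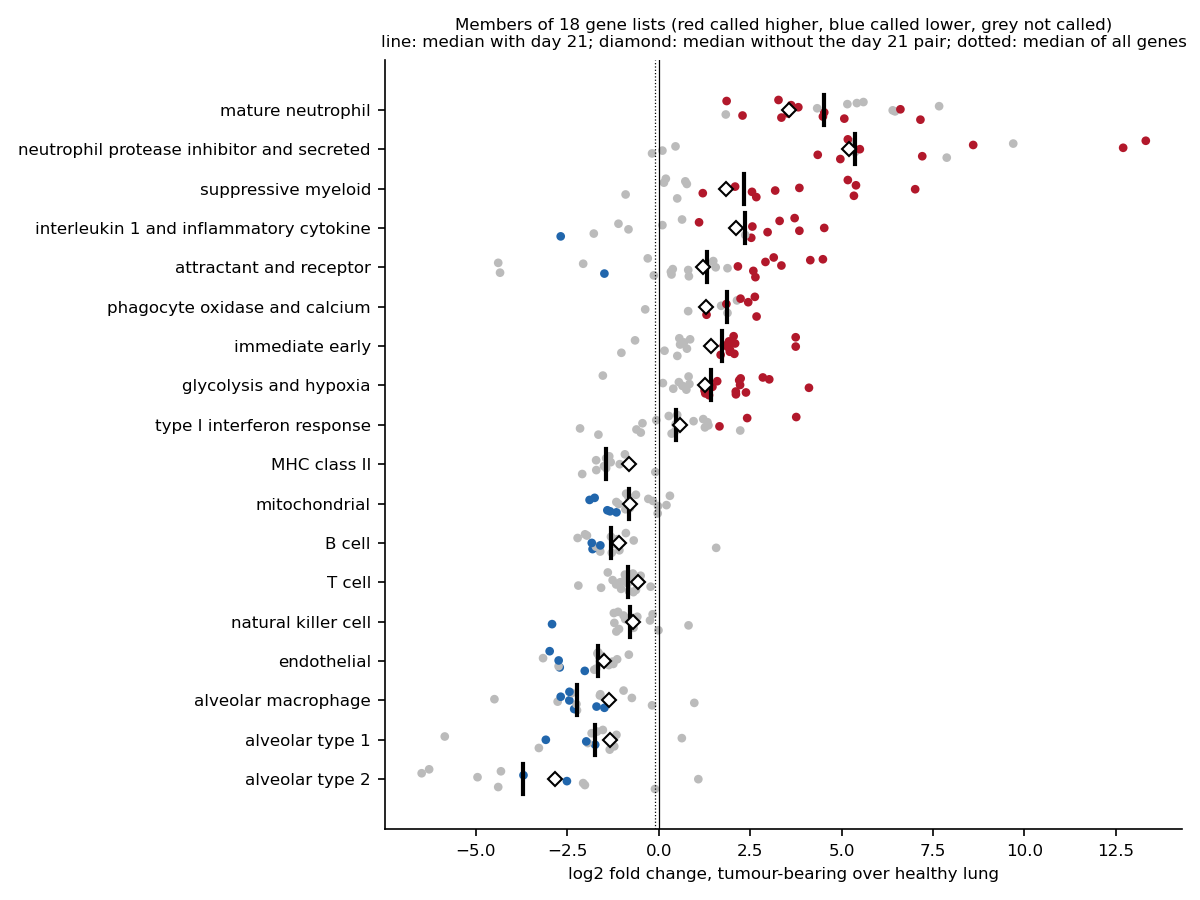
Log2 change, tumour-bearing over healthy lung, of each tested member of 18 gene lists (points; red rose, blue fell, grey did not pass), with the median as a line, the median without the day 21 pair as a diamond and the median of all genes dotted. Neutrophil lists sit to the right with medians of 4.51 and 5.37, and alveolar macrophage and type 2 cell markers to the left with medians of -2.24 and -3.70.

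Taking the neutrophil-like barcodes out of the sums left 24 of 7144 genes higher (0.336%) and 2 lower (0.028%) in tumour-bearing lungs, with 658 at an unadjusted p under 0.05 (edgeR). The granule-rich class was taken out of these sums too. Lrg1 had 116, 256 and 537 CPM in tumour-bearing and 6.20, 4.76 and 18.4 CPM in healthy lungs outside neutrophil-like barcodes (4.97 ± 0.42, edgeR adjusted p = 0.0014). Ifitm1 had 192, 702 and 424 CPM in tumour-bearing and 7.43, 16.2 and 36.7 CPM in healthy lungs (4.78 ± 0.43), and Saa3 512, 396 and 1427 CPM in tumour-bearing and 3.72, 16.2 and 202 CPM in healthy lungs (4.50 ± 0.65). BC100530, Gm5483 and Asprv1 also rose, by 6.10, 4.38 and 4.62. Among the other 18, chosen for mention after their values were seen, Retnlg, Mmp8, Csf3r and Cxcr2 are neutrophil genes and Ccr2, F13a1, Vcan and Tgfbi are genes of classical monocytes. The unnamed cluster led by Top2a, Nusap1 and Mki67 stayed in these sums. It was high in 9 of 11 neutrophil progenitor and 9 of 13 classical monocyte markers. At day 21 in tumour-bearing lungs it held 65 barcodes, with 76761 CPM of S100a8 and S100a9 together. Its part in these calls was not tested. Monocyte-like barcodes were 14.9%, 18.5% and 0.0850% of tumour-bearing and 9.88%, 13.9% and 18.7% of healthy lungs. Ccr2, the receptor that brings monocytes into tissue, rose by 1.84 ± 0.28. Both genes that fell are epithelial or macrophage genes of the lung. Emp2 had 5.16, 23.1 and 32.1 CPM in tumour-bearing and 18.6, 190.4 and 184 CPM in healthy lungs (-2.61 ± 0.39), and Lyz1, which overlaps in sequence with Lyz2, fell by 1.80 on the log2 scale.

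Of the 627 genes that rose in the whole lung 477 could be tested outside neutrophil-like barcodes. Of those, 464 kept their sign, 18 passed, and the median log2 change was 0.80 outside against 1.80 in the whole lung. Of the 159 that fell 137 could be tested, all 137 kept their sign and 2 passed, with a median of -1.12 outside against -1.81. The 2 sets of sums share libraries, so these are values side by side and not separate evidence. The count of rises outside neutrophil-like barcodes was 3 without the day 21 pair, 2 without the day 14 pair and 3 without the day as block, and the falls were 0, 1 and 0.

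Neutrophil-like barcodes of tumour-bearing lungs also differed from those of healthy lungs. This could be tested at days 7 and 14 only, since healthy lungs held 56 and 66 such barcodes at those days and 1 at day 21, and the fit had 1 residual degree of freedom. In healthy lungs 54 and 66 of them lay in a cluster led by Ptgs2, Irg1, Isg15 and Il1b, which also held 339 of 378 and 272 of 463 in tumour-bearing lungs. A cluster led by Prok2, Upp1 and Stfa1 held 162 of the tumour-bearing barcodes of day 14 and none of the healthy ones, and 2 others, led by Saa3 and by Stfa2 and Nos2, held 1056 and 710 of the 1887 in tumour-bearing lungs at day 21. Of 2564 genes tested at days 7 and 14, 52 rose (2.03%) and 32 fell (1.25%), together 3.28%, with 320 at an unadjusted p under 0.05 (edgeR). In the shared cluster alone 37 rose and 26 fell, and 37 and 21 of them were among these. Without the day as block 20 rose and 7 fell, and with library totals alone 34 rose and 67 fell. DESeq2 called 23 higher and 9 lower.

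Values within neutrophil-like barcodes are given for days 7 and 14. Wfdc17 had 11016 and 15742 CPM in tumour-bearing and 219.9 and 781 CPM in healthy barcodes (4.88 ± 0.32, edgeR adjusted p = 3.21e-45). With 1 residual degree of freedom, the p-values of this fit rest mainly on a spread pooled over genes and say little of the spread between libraries. Ifitm1 had 5023 and 8822 CPM in tumour-bearing and 374 and 376 CPM in healthy barcodes (4.14 ± 0.32). Stfa2 had 1488 and 3193 CPM in tumour-bearing and 66.0 and 28.9 CPM in healthy barcodes (5.43 ± 0.49). In each of these the higher healthy value was far below the lower tumour-bearing one. Prok2 had 641 UMIs in tumour-bearing and 0 in healthy barcodes, at least 23.9-fold higher by the floor of 3 UMIs over the group. By the same floor Stfa3 was at least 17.4-fold, Saa3 14.0-fold, Igfbp6 8.92-fold, Upp1 7.43-fold and Gyg 4.63-fold higher. Upp1 splits uridine into uracil and ribose phosphate, and Gyg primes glycogen.

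Calprotectin, which had not passed in the whole lung, passed within neutrophil-like barcodes with a smaller change. S100a9 had 80223 and 138952 CPM in tumour-bearing and 42404 and 59247 CPM in healthy barcodes (1.07 ± 0.25, edgeR adjusted p = 0.00117). S100a8 rose by 1.00 ± 0.25 (edgeR adjusted p = 0.00325). Lcn2 rose by 2.18 ± 0.33, Ly6g by 2.83 ± 0.88, Gapdh by 2.05 ± 0.42, Socs3 by 1.60 ± 0.38 and the chemokine Cxcl2 by 1.47 ± 0.39. Il1b, Cxcr2 and Csf3r, which rose in the whole lung, and Mmp8 did not pass here. Il1b had a log2 change of -0.28 ± 0.25, Cxcr2 of 0.47 ± 0.26, Csf3r of -0.12 ± 0.27 and Mmp8 of 0.38 ± 0.28. In all 36 genes rose both in the whole lung and within neutrophil-like barcodes, which share these libraries.

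Genes that fell within neutrophil-like barcodes included Ptgs2, the inducible cyclooxygenase, with 322 and 63.8 CPM in tumour-bearing and 1408 and 260.4 CPM in healthy barcodes (-2.09 ± 0.42). Rsad2, the antiviral viperin induced by type I interferon, had 58.9 and 23 CPM in tumour-bearing and 329.9 and 231 CPM in healthy barcodes (-2.80 ± 0.60, edgeR adjusted p = 0.00026). Ccl6 had 1370.4 and 355 CPM in tumour-bearing and 2793 and 3529 CPM in healthy barcodes (-2.14 ± 0.30). Both groups of Ptgs2 values were higher at day 7 than at day 14. Nr4a1, an immediate early nuclear receptor, fell by 2.68 on the log2 scale. Scgb1a1, a club cell gene, had 55.8 and 23 CPM in tumour-bearing and 1429.6 and 28.9 CPM in healthy neutrophil-like barcodes (-3.72 ± 0.58). Sftpc and Scgb1a1 together were 832 to 1489 CPM of the class in each of the 6 classes of the healthy day 7 library whose genes were tested, 45.0 to 110.6 in the healthy day 14 library and 0 to 103.4 in the same classes of the tumour-bearing libraries. The unnamed cluster led by these genes, which is not among the 6, had 109131 CPM at day 7 in healthy lungs. Limch1, Zbtb16, Helz and Macf1 completed the genes of lowest fold, on 8 to 44 UMIs in tumour-bearing and 7 to 32 in healthy barcodes.

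**Figure D4:**
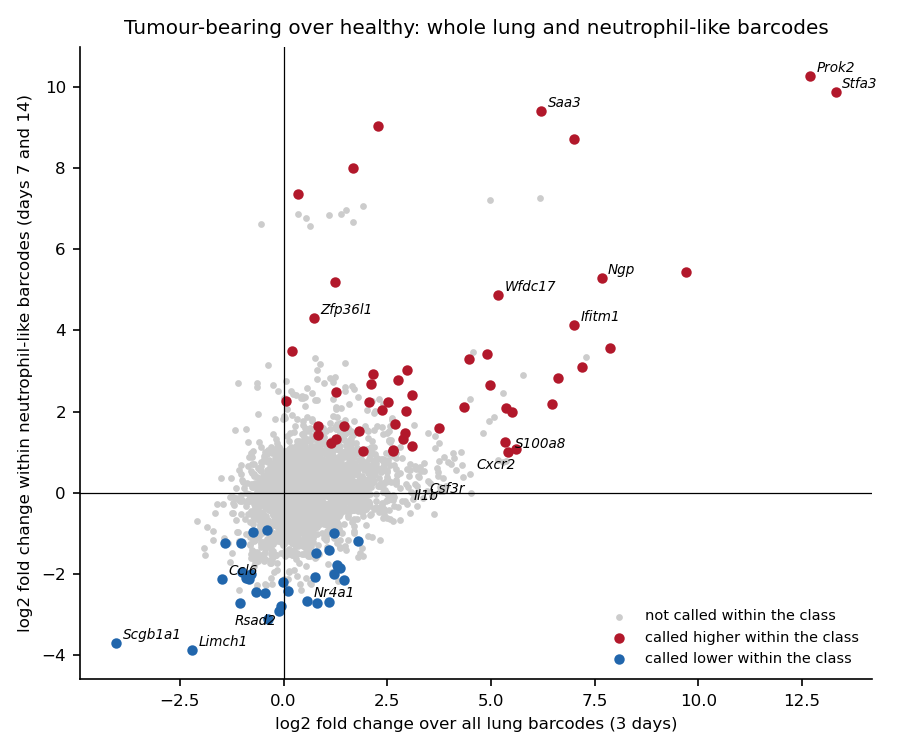
Log2 change, tumour-bearing over healthy, of each gene over all lung barcodes and 3 days (horizontal axis) and within neutrophil-like barcodes at days 7 and 14 (vertical axis); red genes rose and blue genes fell within the class, and genes at 0 UMIs in a group (Prok2, Stfa3 and Saa3 among them) have fitted values that are no bound. Wfdc17 lies high on both axes (5.17 and 4.88), while Il1b is at 2.98 over the whole lung and -0.28 within the class.

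Other classes gave fewer calls, and genes abundant in neutrophils were among them in 4 of the 5 classes. In monocyte-like barcodes at days 7 and 14, 16 of 3176 genes rose (0.504%) and 4 fell (0.126%), together 0.63%, with 223 at an unadjusted p under 0.05 (edgeR). Saa3 had 60.7 and 621 CPM in tumour-bearing and 0 in healthy barcodes, at least 27.6-fold higher. Il1b had 3029.7 and 2642 CPM in tumour-bearing and 1481 and 912 CPM in healthy monocyte-like barcodes (1.29 ± 0.25, edgeR adjusted p = 0.0182). Tgfbi, an adhesion protein that macrophages secrete, rose by 1.55 ± 0.33. Without the day as block 6 rose and 1 fell. The scavenger receptor Cd36, the lipoprotein lipase Lpl, Lyz1 and Scgb1a1 fell. In T cell-like barcodes Ifitm1, Retnlg, Wfdc17 and S100a8 rose (4 of 2442, 0.164%, 81 unadjusted) and none fell, and 13 rose without the day as block. In alveolar macrophage-like barcodes, tested over 3 days, Ifitm1, S100a9 and S100a8 rose (3 of 1900, 0.158%, 84 unadjusted) and none fell. Without the day 14 pair or without the day as block none rose there. In natural killer cell-like barcodes Wfdc17 rose (1 of 651, 0.154%, 27 unadjusted; 0 without the day as block), and in B cell-like barcodes 0 of 2445 passed (edgeR, 80 unadjusted, and 1 with DESeq2).

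Calprotectin transcripts appeared in each of the 6 classes compared here. S100a8 and S100a9 together were 135438 and 188308 CPM of the class at days 7 and 14 in neutrophil-like barcodes of tumour-bearing lungs, against 77385 and 111283 in healthy lungs. T cell-like barcodes had 7891 and 18118 in tumour-bearing and 467 and 183 in healthy lungs. B cell-like barcodes had 1448 and 13647 in tumour-bearing and 437 and 1085 in healthy lungs. The B and T cell-like classes, whose cells are not known as makers of calprotectin, had higher levels in the tumour-bearing libraries, where neutrophil-like barcodes were 40.7% and 49.7% of barcodes, against 9.54% and 6.17% in healthy lungs. Monocyte-like barcodes had 2245 and 14211 in tumour-bearing and 253 and 270.0 in healthy lungs, and alveolar macrophage-like barcodes 2361 and 18012 in tumour-bearing and 227 and 218 in healthy lungs. Natural killer cell-like barcodes had 2669 and 27274 in tumour-bearing and 4798 and 1174 in healthy lungs, so at day 7 alone they went the other way. What part free RNA or doublets have in the calls within these classes was not tested.

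**Figure D5:**
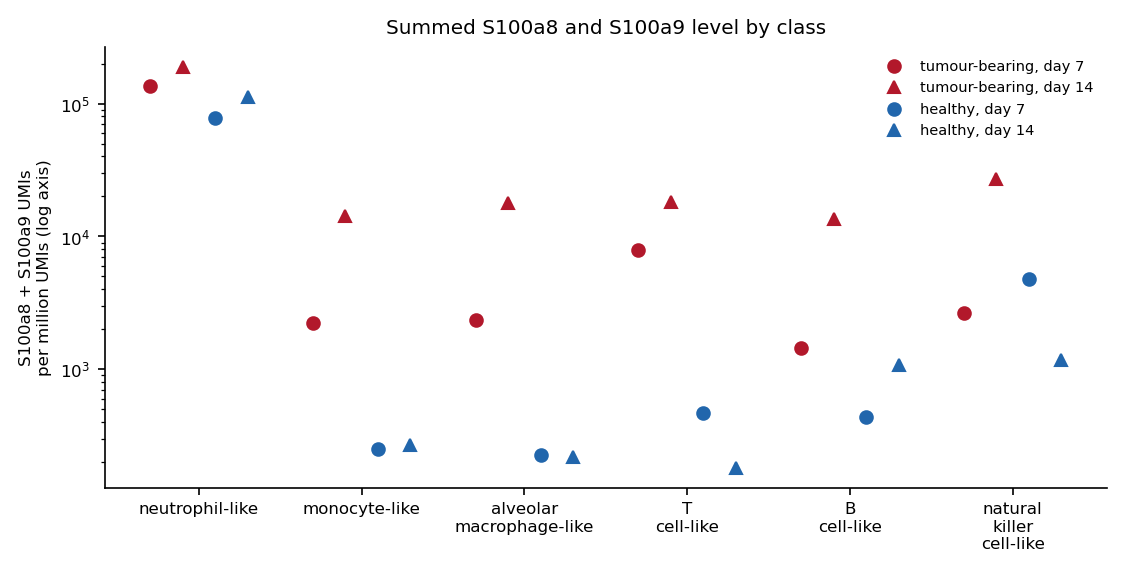
S100a8 and S100a9 together (CPM within the class, log axis) in 6 classes, tumour-bearing (red) left of healthy (blue), at day 7 (circles) and day 14 (triangles). Every class but natural killer cell-like is higher in tumour-bearing lungs at both days, and neutrophil-like barcodes have the highest values, 135438 and 188308.

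Lung and scaffold or spleen were compared by the difference of their tumour effects in the same model. Hk3 was the single gene of 11838 whose effect was larger in lung than in scaffold (0.00845%, with 1087 at an unadjusted p under 0.05), and 0 were lower. Its log2 change was 4.11 ± 0.40 in lung and 0.34 in scaffold, a difference of 3.77 ± 0.49 (edgeR adjusted p = 0.0226). DESeq2 called 139 higher and 19 lower in the same contrast, and the call of Hk3 was lost without the day 14 pair (edgeR adjusted p = 0.28), without the day as block (0.251) and with library totals alone (0.0801). Where shared barcodes were kept in every library the Hk3 difference was 2.51 (0.328), and where all shared barcodes were left out it was 3.66 (0.0647). Lung minus spleen gave 0 calls in either direction (1144 unadjusted, edgeR), and DESeq2 called 19 and 61. In both contrasts a missing call does not show that tissues responded alike.

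Slopes of the tumour effect over the days passed for 1 rise (0.00845%) and 14 falls (0.118%), together 0.127%, of 11838 genes, with 1409 at an unadjusted p under 0.05. Actg1, cytoplasmic actin, had 466, 1595 and 859 CPM in tumour-bearing and 443, 418 and 57.9 CPM in healthy lungs, a slope of 0.27 ± 0.05 log2 units per day. Igj, the joining chain of secreted antibodies, had 67.0, 508 and 0.431 CPM in tumour-bearing and 0, 0 and 413 CPM in healthy lungs. Igha, the IgA heavy chain, had 221, 0 and 0 CPM in tumour-bearing and 0.984, 0 and 254 CPM in healthy lungs. Both were higher in tumour-bearing lungs at day 7 and higher in healthy lungs at day 21. Sftpc, Fabp1, Spp1, Lpl, Atp6v0d2 and Msr1, genes of alveolar type 2 cells or of macrophages, also had falling slopes, from -0.74 ± 0.08 for Sftpc to -0.28 ± 0.05 for Atp6v0d2. The remaining 6 were Fcna, Pf4, Ccnd2, Cd2, Gng11 and Prg4. Each of these slopes rests on 1 library per status and day, and the healthy library of day 21 is one of their ends.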

How the data were processed

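Drop-seq libraries were deposited by the authors as raw UMI counts per gene and barcode, 1 table each (22049 genes); the genome build was mm10 and the named tool Seurat 2, per the submitters' processing notes, and the labels give about 1000 bead and cell pairs amplified per library. For the aligner, gene annotation and cell calling the sources used here give nothing. Kept barcodes had at least 200 genes and a mitochondrial share under 20 percent of UMIs, and shared barcodes were assigned at 5 times the UMIs of the next library or left out; kept UMIs per lung library ran from 113896 to 3653331. Sums per library were tested in edgeR 4.0.16 (R 4.3.3; quasi-likelihood, TMM, filterByExpr, Benjamini-Hochberg) over 17 libraries of lung, scaffold and spleen with 50 or more kept barcodes (healthy spleen of day 21 left out), with a term per tissue and day and a tumour term per tissue; 5 residual degrees of freedom, biological coefficient of variation 0.298. The other tissues lend their spread to the lung.

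CPM values use TMM-scaled library sizes, so a difference between genes is not per length. The day pairs the libraries because the labels match healthy mice in time; deviations of same-day libraries correlated at 0.088, 0.064 and 0.045 over 11838 genes. Lung barcodes were clustered with scanpy 1.11.5 (2000 variable genes, 30 components, 15 neighbours) and leidenalg 0.10.2 at resolution 1, clusters being named from 3 or more markers at 1.5 times the level of other barcodes; no doublets were removed. Class sums needed 20 barcodes per library. Intervals and floors (3 counts) cover counting error only. Named genes are the 12 of largest rise and fall in mean CPM, the 6 of highest and lowest fold at 20 CPM or more, the 6 in each direction of other fits, and 2 to 6 list members of highest CPM per list. Further list members, such as Nos2, Ly6g, Socs3, Tnfsf14, Arg1, Hk1 and Hk2, were given outside this rule. They are not in the counts over genes named by rule. Members and lists were chosen with earlier results of these data known. DESeq2 1.42.0, other scalings, filters, barcode rules and left-out pairs were tried as alternatives, and statistics were tested on simulated data.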

Additional observations from a re-analysis of the deposited data

Results flagged for a closer look

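Hk3 is listed because its tumour effect differed between lung and scaffold by a test of the difference itself, 3.77 ± 0.49 on the log2 scale (edgeR adjusted p = 0.0226). Log2 ratios of tumour-bearing over healthy at days 7, 14 and 21 were 4.19, 3.66 and 4.75 in lung and 0.45, 0.12 and 0.43 in scaffold. Lung held 655 UMIs of Hk3 in tumour-bearing and 13 in healthy libraries.

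Mrc1 is listed because it was lower in tumour-bearing lungs at all 3 days and higher in tumour-bearing scaffolds at all 3 days. Its log2 ratios were -0.67, -2.90 and -3.79 in lung and 0.22, 0.70 and 0.05 in scaffold. The difference of the effects was -2.77 ± 0.67 and did not pass (edgeR adjusted p = 0.219).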

How the results depend on the processing

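Genes that rose in the lung numbered 314 with library totals alone, 1005 with no filter, 1044 with DESeq2, 294 with lung fitted alone, 610 with no replicate block and 115 to 710 leaving out 1 pair of days. Genes that fell numbered 291, 523, 660, 17 and 121 in these, 275 with all 18 libraries, 360 with shared barcodes kept in every library (not assigned to 1), 61 at 400 genes per barcode and 16 to 360 leaving out 1 pair. Chosen after seeing the data, leaving out day 21 with shared barcodes kept in every library gave 207 and 7, and the healthy library of day 21 left out with no block gave 129 and 9. The day pairs libraries by the study's design, and beyond the counts given for the replicate block here and below it moved no count by over 1.5 times.

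For lung minus scaffold, calls higher and lower were 144 and 51 with no filter, 139 and 19 with DESeq2, 10 and 2 with all 18 libraries, and 0 to 15 and 0 to 9 leaving out 1 pair. Library totals alone, shared barcodes not assigned, all shared left out and no block each gave 0 higher. For lung minus spleen they were 16 and 100 with no filter and 19 and 61 with DESeq2. All 18 libraries gave 4 lower and shared barcodes not assigned 2, and leaving out 1 pair gave 0 to 1 higher and 0 to 3 lower. For the slope with day, rises and falls were 0 and 75 with library totals alone, 84 and 146 with no filter, 34 and 188 with DESeq2, 2 and 33 with all 18 libraries and 0 and 3 with shared barcodes not assigned, and 0 rose with all shared left out.

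Outside neutrophil-like barcodes rises and falls were 106 and 64 with no filter, 82 and 24 with DESeq2, 3 and 0 with no block, and 2 to 26 and 0 to 5 leaving out 1 pair. Within neutrophil-like barcodes they were 34 and 67 with library totals alone, 23 and 9 with DESeq2 and 20 and 7 with no block, and 8 fell with no filter. Within monocyte-like barcodes they were 26 and 8 with no filter, 7 and 2 with DESeq2 and 6 and 1 with no block, and 12 fell with totals alone. Within T cell-like barcodes they were 9 and 1 with totals alone and 18 and 2 with no filter, with 13 rises under no block and 1 fall with DESeq2. Within B cell-like barcodes they were 6 and 3 with totals alone and 8 and 3 with no filter, with 1 rise under DESeq2. Within alveolar macrophage-like barcodes they were 10 and 3 with no filter, with 0 rises under no block, 1 fall under DESeq2, and 0 to 3 rises and 0 to 1 falls leaving out 1 pair. Within natural killer cell-like barcodes rises were 2 with RLE, 2 with totals alone, 4 with no filter and 0 with no block. Classes called were 0 at resolution 2 and 0 to 5 leaving out 1 pair, and the log2 change of the neutrophil-like share was 2.55 to 4.91.

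Signs turned for uncalled values only. Abca3 was 0.27 with shared barcodes not assigned, 0.17 with all left out, 0.030 with no block, 0.11 at 400 genes and 0.19 without the healthy day 21 library. Chi3l3 was 0.18 not assigned, 0.41 with no block, 0.16 under 10 percent mitochondrial, 0.72 without the healthy day 21 library and -0.80 to 0.52 leaving out 1 pair, and Elane was -0.18 not assigned. Log2 shares turned for basophil and mast cell-like (-0.61 with 1 barcode per set alike in 11 bases) and, outside neutrophil-like barcodes, for interstitial macrophage-like (0.13) and the Top2a cluster (1.08). Leaving out 1 pair they ran from -0.074 to 0.71 for basophil and mast cell-like, -1.90 to 0.11 for interstitial macrophage-like, -0.47 to 0.14 for the Top2a cluster, -0.36 to 2.84 for erythroid-like, -3.32 to 0.49 for monocyte-like and -2.73 to 4.22 for the Gm26596 cluster. The cause was not tested in any case. Over genes named by rule in the lung, 1440 alternative values kept direction and call, 493 lost the call, 89 gained it and 11 turned. Shallow libraries limit rare classes most: healthy lung at day 21 had 235 barcodes.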
